A study of Mus musculus with 6 samples.

Results

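The genes described here are 34 genes of the secretory pathway and the unfolded protein response, read in fetal mouse livers at E18.5 that keep or are meant to lack HNF4 alpha. They are all genes of a fixed list of 34 symbols, taken with every probe set of the array that the platform annotation gives to that single symbol. All 34 were found, with 86 probe sets, among 18193 genes and 45037 probe sets tested. A gene was represented by its brightest probe set, the one with the highest mean over the 6 arrays. The 3 control livers (Hnf4LoxP/+AlfpCre) carry 1 loxP-flanked Hnf4 allele, and the 3 null livers (HNF4LoxP/LoxP AlfpCre) carry 2, so both groups carry the flanked allele and the Cre transgene. In AlfpCre the regulatory elements of the albumin and alpha-fetoprotein genes drive Cre recombinase, which aims the deletion at the hepatocyte lineage and leaves the blood-forming, endothelial and mesenchymal cells of the whole liver with their alleles. The labels do not tell if livers shared a litter, and the p-values rest on the spread among these 6 arrays.

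Secreted and membrane proteins enter the endoplasmic reticulum (ER) through the Sec61 channel, fold there with the help of chaperones such as BiP, calreticulin and the protein disulfide isomerases, and leave in vesicles coated with COPII. Proteins that do not fold are drawn back to the cytosol and destroyed, which is called ER-associated degradation. When unfolded proteins build up, the sensors IRE1 (Ern1), PERK (Eif2ak3) and ATF6 raise the genes of chaperones and degradation through the factors XBP1, ATF4 and cleaved ATF6, and with lasting stress they induce Ddit3, Trib3 and Chac1. Hepatocytes secrete most plasma proteins and are rich in this machinery.

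Values are intensities on the linear scale of the deposited file, listed in the order Control_8, Control_1192, Control_1193 and Null_61, Null_1191, Null_1195, and ± is the SD over 3 arrays. A change is the log2 difference of null minus control after adding 32, a fold is computed on that scale and understates the change of dim genes, and a call is an adjusted p under 0.05 from limma with Benjamini-Hochberg adjustment over all probe sets. The array medians over all probe sets lay between 91.8 and 99.6. Hnf4a, the deleted gene, was called lower in 2 of its 4 probe sets, and its brightest probe set read 2767 ± 142 in controls and 2039 ± 649 in nulls, so that all 4 were lower on average (62.2% to 73.7% of the control mean) and the brightest overlapped through Null_1195, at 2778. The labels do not place the probes relative to the deleted exons. Control_8 and Null_61 stood apart from the other arrays, reading 42.1 and 33.5 on the 5' control probe set of 18S RNA where the others read 449 to 616. Null_1195 had the highest ratio of 3' to 5' signal for Gapdh, 1.28 where the others had 0.934 to 1.06. For beta-actin its ratio was 1.76, near the 1.73 of Control_8. The summed intensity of 7 hepatocyte markers was 74086 to 75605 in the controls and 40525 to 44792 in the nulls. Of the 7, 5 were called lower, Ttr, Apoa1, Apoa2, Serpina1b and Fgb. Alb and Afp were not called, with null means at 101% and 95.8% of the control mean. They read 10165 to 11079 and 11302 to 11995, near the highest intensity of any array, 12608. The sums were 2668 to 3023 and 3694 to 5233 for 7 macrophage markers (3 called higher), 4996 to 7010 and 3534 to 4043 for 5 megakaryocyte markers (3 called lower), 1705 to 1939 and 1179 to 1387 for 6 endothelial markers (3 called lower), and 1312 to 1555 and 851 to 1202 for 6 B and plasma cell markers (1 called lower). The 5 erythroid markers summed to 16832 to 17793 and 19482 to 19711, the 6 mesenchymal ones to 2668 to 3687 and 3325 to 5653, the 6 neutrophil ones to 15880 to 17691 and 13897 to 16844, the 4 cholangiocyte ones to 640 to 722 and 619 to 775, and the 4 pancreatic acinar ones to 2730 to 3055 and 2788 to 2980, with 0 called in each. Of all these lists 0 markers were at or below 0 in all arrays. The part of these shifts in the results was not tested, and in a whole liver fewer cells of a type and less RNA per cell cannot be told apart.

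Several of these genes are textbook targets of the stress response through short sequences before their start. The RefSeq promoter table (build GRCm38.p6) held 29 of the 34 genes, and the 250 bases before the start were searched on both strands. The ER stress response element, CCAAT followed after 9 bases of any kind by CCACG, bound by ATF6 and XBP1 together with NF-Y, was found before 8 of the 29 genes, against 0.113% of all 32851 windows of that length. Its relative, ATTGG followed after 1 base by CCACG, shares the CCACG part and was found before 1 gene, Herpud1, against 0.0304% of windows. The C/EBP-ATF element TGATGNAAN, the kind of site through which ATF4 acts, was found before Herpud1, Chac1 and Asns, against 3.44% of windows. The letters TGACGTGG, 1 form of a site of XBP1, and CAAAGTCCA, a core bound by HNF4 alpha, were found before 0 of the 29 genes, against 0.563% and 0.384% of windows. Other forms of these sites were not searched. A match is a description of letters in this window, and its absence says nothing about binding elsewhere. The element is shown for each of its 8 genes, read 5′ to 3′ on the strand that matches, because genes that were not called share it with Dnajc3, which was called. Capitals mark its CCAAT and CCACG parts:
Hspa5: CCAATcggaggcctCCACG
Hsp90b1, same strand: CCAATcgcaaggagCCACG
Hsp90b1, opposite strand: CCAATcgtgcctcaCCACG
Calr: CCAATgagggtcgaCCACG
Canx: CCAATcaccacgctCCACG
Pdia6: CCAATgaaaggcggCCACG
Creld2: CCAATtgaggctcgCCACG
Dnajc3: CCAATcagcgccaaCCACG
Syvn1: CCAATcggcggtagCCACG

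The whole windows follow for Herpud1 (chr8:94386179-94386428, plus strand), Dnajc3 (chr14:118937682-118937931, plus strand) and Hspa5 (chr2:34771840-34772089, plus strand), the member with the largest fall, the chaperone cofactor that fell and the chaperone most used as a readout of ER stress. Capitals mark the ER stress response element in Dnajc3 and Hspa5, and in Herpud1 first the C/EBP-ATF element on the opposite strand and then the ATTGG and CCACG element:
Herpud1: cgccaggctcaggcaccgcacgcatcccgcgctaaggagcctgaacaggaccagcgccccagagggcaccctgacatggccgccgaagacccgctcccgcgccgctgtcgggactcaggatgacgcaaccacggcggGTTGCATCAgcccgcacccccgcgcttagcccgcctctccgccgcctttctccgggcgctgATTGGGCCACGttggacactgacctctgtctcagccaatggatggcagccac
Dnajc3: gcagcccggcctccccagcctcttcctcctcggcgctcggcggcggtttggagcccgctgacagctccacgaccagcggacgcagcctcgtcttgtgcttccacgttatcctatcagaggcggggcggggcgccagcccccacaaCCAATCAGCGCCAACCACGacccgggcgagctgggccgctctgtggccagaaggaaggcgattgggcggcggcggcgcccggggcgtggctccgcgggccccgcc
Hspa5: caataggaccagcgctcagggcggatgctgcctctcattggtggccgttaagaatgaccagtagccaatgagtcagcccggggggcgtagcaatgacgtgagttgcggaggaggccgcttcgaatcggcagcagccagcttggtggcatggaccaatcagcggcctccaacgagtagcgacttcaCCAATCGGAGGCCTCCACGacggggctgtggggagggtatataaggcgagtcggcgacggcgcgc

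In the null livers 4 of the 34 genes fell and 0 rose. Those that fell were Herpud1, Derl2, Dnajc3 and Xbp1, at 11.8% of the members where 7.85% of all genes fell. No member passed the limma test as higher, where 1.56% of all genes did. An unadjusted limma p under 0.05 was found for 2 of the 34 members in that direction and for 8 in the other. Over all 18193 genes it was found for 1656 and 2760. In either direction 4 of 34 members were called, where 9.4% of all genes were. The median change of the members was 0.05, and that of all genes was 0.01. All 3 nulls lay below all 3 controls in 8 members (23.5%, against 17.9% of all genes) and above them in 5 (14.7%, against 13.2%). Among the 30 genes not called, 21 had a 95% interval that stayed within a 1.5-fold change in either direction. With quantile normalization 2 members fell and 1 rose, and over all genes 1196 fell and 617 rose in place of 1428 and 283. The number of members that fell was 2, Herpud1 and Derl2, without Control_1192, Control_1193 or Null_1191, and without Null_61 1 gene, Atf4, rose. Over all genes 4.98% fell without Control_1192, 5.40% without Control_1193 and 5.46% without Null_1191, and 3.07% rose without Null_61. Between Control_8 and Null_61 alone the changes were -0.96 for Herpud1, -0.70 for Derl2, -0.79 for Dnajc3 and -0.46 for Xbp1, and among the other 4 arrays they were -1.05, -0.65, -0.84 and -0.48. For Atf4 they were 0.08 and 0.98.

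**Figure D1:**
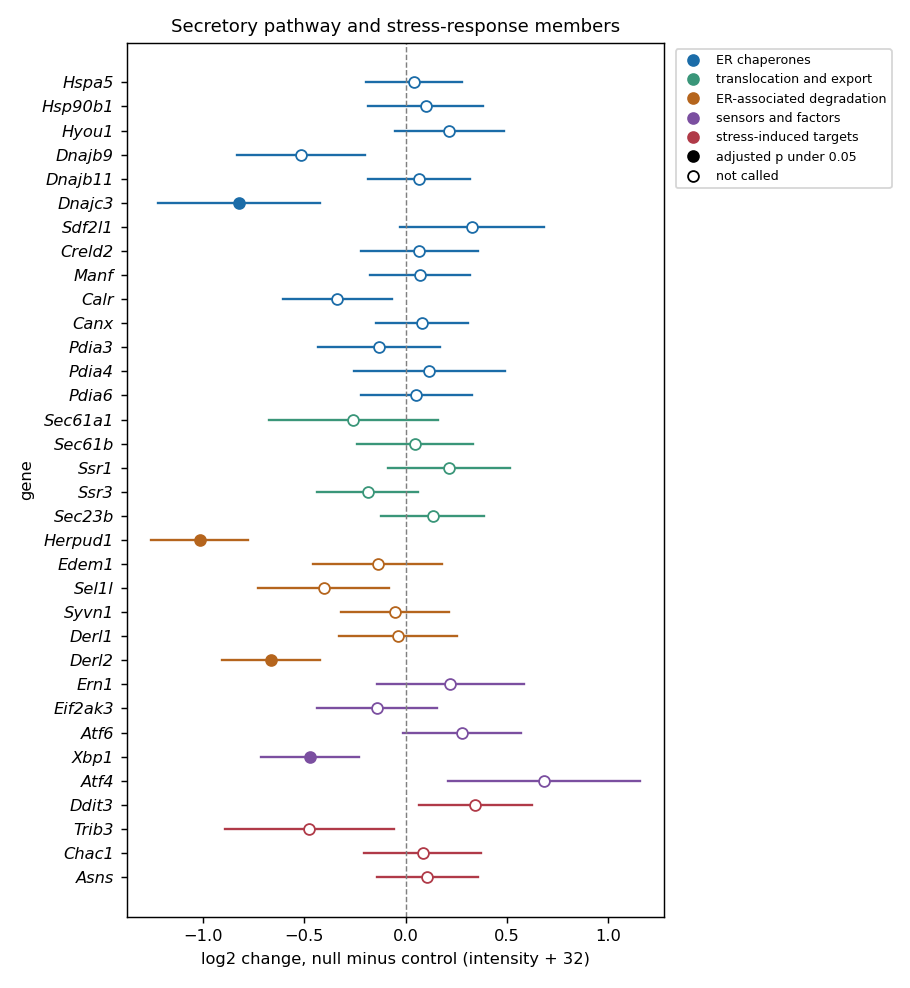
Log2 change of null minus control (x axis, intensity plus 32) for the brightest probe set of each of the 34 genes (y axis), coloured by role, with 95% intervals from the limma fit over 3 control and 3 null arrays. Filled points are the 4 called genes, Herpud1, Derl2, Dnajc3 and Xbp1, all lower in the nulls, while the other 30 are open.

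ER-associated degradation held the largest fall among the members, with 2 of its 6 members called lower (33.3%, against 7.85% of all genes). Its changes ran from -1.02 for Herpud1 to -0.04 for Derl1, although Syvn1 and Derl1 turned to 0.06 and 0.15 with quantile normalization. Herpud1 encodes HERP, a membrane protein that is induced by stress and gathers the degradation complex around the ligase HRD1. Herpud1 read 1304, 1290 and 1457 in controls and 655, 618 and 677 in nulls. Each null array was below every control by a wide margin, and the spread within each group was small (1350 ± 92.6 and 650 ± 29.9). The change was -1.02 with a standard error of 0.11 (adjusted p = 0.000444), a 2.02-fold fall. Its other, slightly dimmer probe set read 1158, 1124 and 1128 against 439, 417 and 438, a change of -1.33 with a standard error of 0.10 (adjusted p = 5.96e-05). The call of Herpud1 was kept in all 17 alternatives, with changes from -1.18 to -0.81.

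Derl2 encodes derlin-2, one of the derlins that move misfolded proteins out of the ER. It read 545, 514 and 520 in controls and 324, 305 and 330 in nulls. The groups were far apart compared with their spread, and the change was -0.67 with a standard error of 0.11 (adjusted p = 0.0057), a 1.59-fold fall that was called in all 17 alternatives. Its other, dimmer probe set had a change of -0.44 and was not called (adjusted p = 0.161). Derl1, the gene of the related derlin-1, showed a split between its probe sets. The brightest read 534, 555 and 619 against 495, 539 and 636, with overlapping groups and a change of -0.04 (adjusted p = 0.903), while the dimmest of its 4 read 209, 201 and 199 against 110, 137 and 145 and fell by 0.54 on the log2 scale (adjusted p = 0.037). That call was lost without Control_8, Control_1192, Control_1193, Null_1191 or Null_1195 (adjusted p = 0.123, 0.131, 0.114, 0.0906 and 0.0505). In 3 of the 4 probe sets of Derl1 all nulls lay below all controls.

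The other degradation genes were not called. Sel1l, the adaptor that holds the HRD1 ligase in its complex, read 387, 534 and 467 in controls and 371, 309 and 340 in nulls. All nulls lay below all controls, but Null_61 and Control_8 nearly met, and the change of -0.40 did not pass (adjusted p = 0.146). The adjusted p of Sel1l was 0.032 in the 4 arrays without Control_8 and Null_61, and its 4 other probe sets had changes of -0.02, 0.01, -0.46 and -0.30, none called. Syvn1, the gene of HRD1 itself, had a change of -0.05 with a 95% interval of -0.32 to 0.22. Edem1, a mannosidase-like protein that hands over glycoproteins for degradation, had a change of -0.14 with an interval of -0.46 to 0.18.

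Most of the ER chaperones were not called. Of 14 chaperone and folding genes 1 was called, lower, or 7.14% where 7.85% of all genes were. The median change was 0.07, and 10 of the 13 others had an interval within a 1.5-fold change. Hspa5, which encodes BiP, read 2949, 2627 and 2993 in controls and 2665, 3019 and 3143 in nulls. The groups overlapped, and the change was 0.04 with a 95% interval of -0.19 to 0.28 (adjusted p = 0.858). Its second probe set gave 0.04 too, but the dimmest read 332, 395 and 423 against 534, 566 and 689 and rose by 0.60 (adjusted p = 0.038). That rise was lost without Control_8, Control_1192, Control_1193, Null_1191 or Null_1195 (adjusted p = 0.141, 0.122, 0.0755, 0.0963 and 0.104), and the x in this probe set's name marks probes that can bind other transcripts. The brightest probe sets of Calr, Ssr3, Atf4 and Trib3 carry an x as well.

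Hsp90b1, which encodes GRP94, the ER member of the HSP90 family, read 2988, 2739 and 3024 against 2753, 2960 and 3736. Only Null_1195 stood above the controls, and the change of 0.10 was not called (adjusted p = 0.697). The other probe set of Hsp90b1 gave -0.30 (adjusted p = 0.298). Calr, the gene of the lectin chaperone calreticulin, read 3144, 3104 and 3515 against 2190, 2759 and 2795. All nulls lay below all controls in each of its 3 probe sets, with changes of -0.34, -0.22 and -0.23, and none was called (adjusted p = 0.145 for the brightest). Canx, its membrane-bound relative calnexin, read 1999, 1948 and 1981 against 2060, 1926 and 2309, with a change of 0.08. The dimmest of 3 Canx probe sets had a change of -1.78 and an adjusted p of 0.0576, and averaging the 3 made Canx a call, lower (-0.61, adjusted p = 0.0279).

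The disulfide isomerases Pdia3, Pdia4 and Pdia6 had changes of -0.13, 0.12 and 0.05, and their groups overlapped. Hyou1, a nucleotide exchange factor for BiP, read 575, 536 and 585 against 610, 631 and 751, with all nulls above all controls and a change of 0.22 that was not called (adjusted p = 0.34), while its 2 other probe sets gave -0.32 and 0.03. Sdf2l1, which works with BiP and its cofactors, read 132, 122 and 118 against 212, 151 and 137, also without overlap, with a change of 0.33 (adjusted p = 0.272). Creld2, Manf and Dnajb11, all known to be induced by ER stress, each had a change of 0.07, with intervals from -0.22 to 0.36, -0.18 to 0.32 and -0.19 to 0.32.

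Dnajc3 was the 1 chaperone gene that was called. It encodes P58IPK, a J-domain cofactor of BiP in the ER that was first described as an inhibitor of PERK and related kinases. Dnajc3 read 606, 856 and 760 in controls and 338, 377 and 503 in nulls. The groups did not overlap, although Control_8 was the lowest control and Null_1195 the highest null. The change was -0.82 with a standard error of 0.18 (adjusted p = 0.025), a 1.77-fold fall. Its 5 probe sets had changes from -0.99 to -0.49, and 2 of them were called. The call of the brightest was lost without Control_1192, Control_1193 or Null_1191 (adjusted p = 0.12, 0.0986 and 0.0989). It was also lost with embryo sex, as read from Xist and Y-linked genes, as a term (0.0695) and with quantile normalization (0.0535). The change of the brightest stayed between -0.98 and -0.65. The call of the other called probe set was lost without the same arrays (adjusted p = 0.128, 0.107 and 0.0898) and with embryo sex as a term (0.0523).

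Dnajb9, which encodes ERdj4, another J-domain cofactor of BiP and a known XBP1 target, read 569, 478 and 656 in controls and 352, 418 and 385 in nulls. All nulls lay below all controls, and the change of -0.52 with a standard error of 0.14 missed the threshold (adjusted p = 0.0656). With the run of title numbers as a block it was 0.0316.

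**Figure D2:**
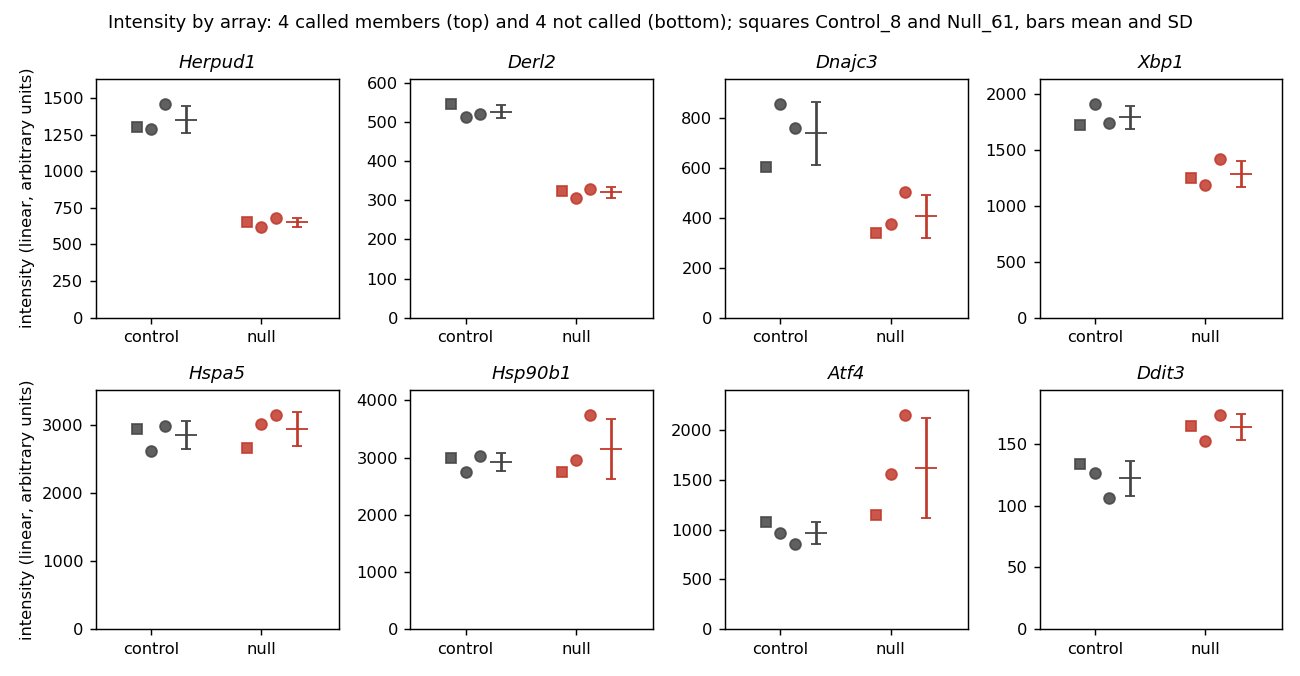
Intensity on a linear scale (y axis, from 0) in each of 3 control and 3 null arrays (x axis) for the 4 called members (top) and 4 that were not called (bottom), with the mean and SD beside the points and squares for Control_8 and Null_61. The groups of Herpud1, Derl2, Dnajc3 and Xbp1 do not overlap, those of Hspa5 and Hsp90b1 do, and Null_1195 is the highest array for Atf4 at 2151.

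Among the sensors and factors Xbp1 fell, and the sensors were not called. Xbp1 encodes the factor whose RNA is spliced by IRE1, and it drives secretory capacity in hepatocytes and plasma cells. Xbp1 read 1726, 1910 and 1744 in controls and 1249, 1191.6 and 1418 in nulls. The lowest control stayed above the highest null, and the change was -0.47 with a standard error of 0.11 (adjusted p = 0.0333), a 1.39-fold fall. The second brightest of its 4 probe sets read 1067, 1190 and 1040 against 806, 736 and 630 and fell by 0.59 (adjusted p = 0.024). The 2 dimmer ones had changes of -0.40 and 0.11 and were not called. The labels do not say which probes lie on the spliced segment, so spliced and unspliced RNA were not told apart. The call of the brightest was lost without Control_8, Control_1192, Control_1193 or Null_1191 (adjusted p = 0.0955, 0.151, 0.106 and 0.128) in the 4 arrays without Control_8 and Null_61 (0.0575) and with quantile normalization (0.16), where the change was -0.24. That of the second probe set was lost without any of these arrays (0.0775, 0.121, 0.072 and 0.0771) or without Null_1195 (0.0556). Plasma cells are rich in Xbp1, and the 6 B and plasma cell markers summed to 1312 to 1555 in the controls and 851 to 1202 in the nulls. Only Sdc1 among them was called, at 530, 495 and 422 against 168, 139 and 265. The plasma cell markers Mzb1 and Jchain had changes of 0.01 and -0.10 and overlapping groups. The part of these markers in the fall of Xbp1 was not tested.

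Ern1, the gene of IRE1 alpha, read 238, 225 and 256 against 218, 338 and 310, with overlapping groups and a change of 0.22 (adjusted p = 0.473). Eif2ak3, the gene of PERK, read 208, 184 and 174 against 163, 149 and 192, a change of -0.14 (adjusted p = 0.582). Atf6, the membrane-bound factor that is cut in the Golgi, read 285, 327 and 322 against 437, 373 and 345. All nulls were above all controls in this probe set but below them in 1 of its 2 others, and the change of 0.28 was not called (adjusted p = 0.257).

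Atf4, the factor that is translated when PERK or a related kinase is active, had the widest 95% interval of the 34 genes. The brightest of its 3 probe sets, with an x in its name, read 1078, 971 and 855 in controls and 1145, 1559 and 2151 in nulls. The groups did not overlap, but Null_61 was close to Control_8, and the change of 0.68 with a standard error of 0.21 was not called (adjusted p = 0.096). The other probe sets read 901, 849 and 761 against 946, 849 and 957, and 145, 112 and 159 against 130, 138 and 152, with changes of 0.13 and 0.02. Atf4 was called higher without Null_61 (adjusted p = 0.00877), in the 4 arrays without Control_8 and Null_61 (0.00741), with quantile normalization (0.0242), with array weights (0.0147) and with the number run as a block (0.04). Averaging its 3 probe sets gave a change of 0.28.

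The 4 stress-induced targets were not called in either direction, where 9.4% of all genes were, and their median change was 0.10. Ddit3, which encodes CHOP, the factor tied to cell death under lasting stress, read 134, 126 and 106 in controls and 165, 152 and 173 in nulls. All nulls lay above all controls at a low level, and the change of 0.35 with a 95% interval of 0.06 to 0.63 did not pass the adjusted test (adjusted p = 0.15). In the 17 alternatives the change of Ddit3 lay between 0.22 and 0.42, and none called it. Trib3, a pseudokinase induced by ATF4 and CHOP, read 124, 139 and 169 against 66.1, 122 and 100. Its values went the other way, with a change of -0.48 (adjusted p = 0.18) and a null mean of 96.0 that lay below the highest array median. With the number run as a block it was called lower (adjusted p = 0.0411).

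Chac1, which breaks down glutathione and is induced by ATF4, read 248, 272 and 324 against 290, 310 and 296. The groups overlapped and the change was 0.08, with an interval from -0.20 to 0.37. Asns, the asparagine synthetase gene and a standard readout of the amino acid response, read 1354, 1424 and 1263 against 1513, 1546 and 1308. Its change was 0.11 with an interval from -0.14 to 0.36, and the other probe set gave 0.20. Chac1 and Asns carry the C/EBP-ATF letters before their start and were not called, while Herpud1, which carries them too, was called lower. A link of these letters to the calls was not tested.

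None of the 5 genes of translocation and export was called, where 9.4% of all genes were called in either direction. Sec61b, a subunit of the channel, read 1900, 1946 and 2211 in controls and 1796, 2092 and 2398 in nulls, with a change of 0.05. Sec61a1, the pore itself, read 1392, 1539 and 1798 against 1051, 1218 and 1736. The groups overlapped through Null_1195, and the change of -0.26 was not called (adjusted p = 0.463). Its 6 probe sets ran from -0.76 to 0.42 and none was called. Ssr1 and Ssr3, subunits of the translocon-associated complex, had changes of 0.22 and -0.19. A dim Ssr1 probe set read 77.5, 60.6 and 55.4 against 126, 120 and 122 and rose by 0.69 (adjusted p = 0.0126), a call that was lost without Control_1192, Control_1193 or Null_1191 (0.07, 0.0641 and 0.0501). Sec23b, an inner COPII coat protein, read 543, 577 and 560 against 656, 560 and 640, a change of 0.13 (adjusted p = 0.536).

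Over all 86 probe sets of the members, 8 fell and 2 rose, where 5.55% of all probe sets fell, 1.46% rose and 7.01% did either. The 8 belong to Herpud1, Dnajc3 and Xbp1 with 2 each and to Derl2 and Derl1 with 1 each. The 2 that rose, in Hspa5 and Ssr1, were not the brightest of their genes. The number of probe sets that fell was 3 without Control_1192 or Control_1193, 4 without Null_1191 and 15 without Null_61, and the number that rose was 1 without Control_8, 0 without Control_1192, Control_1193 or Null_1191 and 4 without Null_61. Over all genes 4.98%, 5.40%, 5.46% and 9.28% fell without Control_1192, Control_1193, Null_1191 and Null_61. The share of all genes that rose was 0.539%, 0.709%, 0.742% and 3.07% without these, and 0.709% without Control_8.

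**Figure D3:**
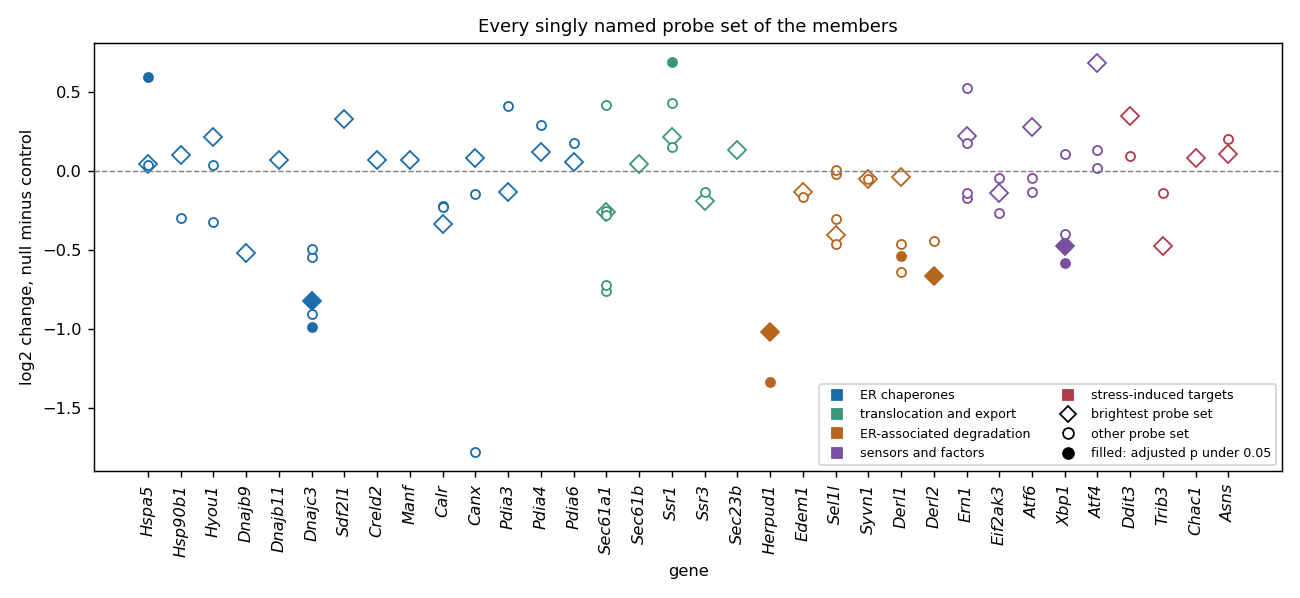
Log2 change of null minus control (y axis) for each of the 86 singly named probe sets of the 34 genes (x axis), with diamonds for the brightest probe set of a gene and filled symbols where the adjusted p is under 0.05. Both probe sets of Herpud1 are filled and low, and those of Sec61a1 spread from -0.76 to 0.42.

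The roles were also set side by side by array. For each array, the median over the genes of a role was taken of the log2 value minus the control mean. The chaperones read 0.02, 0.00 and 0.09 in the nulls, inside or just above the control range of -0.07 to 0.05. The degradation genes read -0.24, -0.45 and -0.19 in the nulls, against -0.03 to 0.00 in the controls. The stress-induced targets read 0.11, 0.16 and 0.02, against -0.07 to 0.05, so that Null_1195 lay within the control range. For the sensors and factors Null_61 lay at -0.12, and Null_1191 and Null_1195 at 0.24 and 0.14. These medians describe the arrays and carry no test, and 3 of the 6 degradation genes had overlapping groups.

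**Figure D4:**
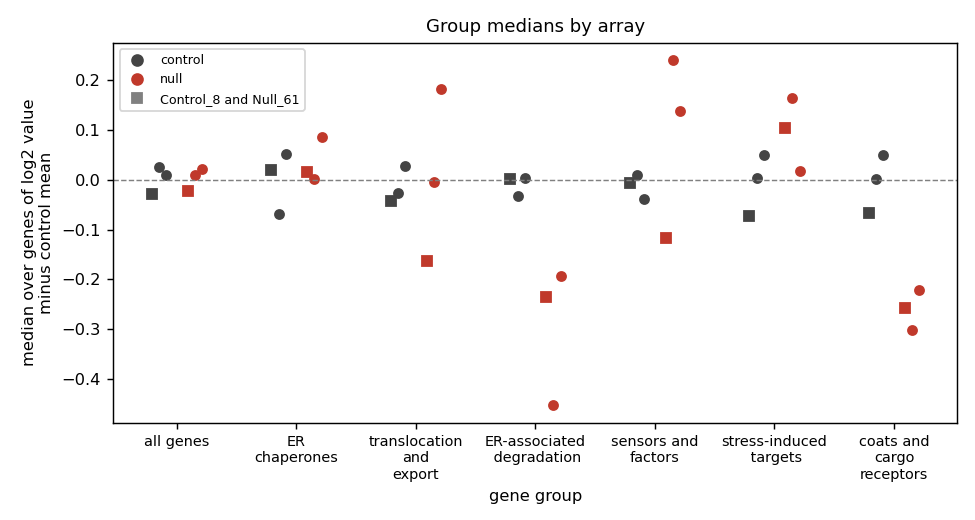
Median over the genes of a group of the log2 value minus its control mean (y axis) in each array, for all genes, the 5 roles of the members and the coat and cargo receptor genes (x axis), in grey for controls and red for nulls, with squares for Control_8 and Null_61. The nulls of the degradation group lie between -0.45 and -0.19, below the controls, and those of the chaperones between 0.00 and 0.09.

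Other genes of the pathway were read from 6 lists of 136 symbols, of which 125 were measured. Of these 17 fell and 2 rose, and the median change was -0.13. The share that fell was 13.6% and the share that rose 1.6%, against 7.85% and 1.56% of all genes. Leaving out Control_8, Control_1192, Control_1193, Null_1191 or Null_61 gave counts that fell of 10, 9, 8, 9 and 24, and the count that rose was 1 without any of Control_8, Control_1192, Control_1193, Null_1191 or Null_1195 and 3 without Null_61. Over all genes the share that fell without the first 5 named was 5.89%, 4.98%, 5.40%, 5.46% and 9.28%. The share of all genes that rose was 3.07% without Null_61 and 0.539% to 0.857% without any other array.

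The most calls were among the coats and cargo receptors of transport from the ER to the Golgi, with a median of -0.24. There 7 of 28 genes (25%) fell and 1 (3.57%) rose, against 7.85% and 1.56% of all genes. Sar1b, the GTPase that starts COPII assembly and is needed for lipoprotein export, read 1631, 1711 and 1651 in controls and 789, 864 and 848 in nulls. The spread within each group was small beside the gap, and the change was -0.97 with a standard error of 0.10 (adjusted p = 0.000364), a 1.96-fold fall. Sec23a, the close relative of Sec23b in the inner coat, read 602, 585 and 620 against 351, 263 and 307, a change of -0.91 with a standard error of 0.13 (adjusted p = 0.0027). The difference between Sec23a, which was called, and Sec23b, which was not, was not tested. Sec24a, a cargo-binding coat protein, read 415, 410 and 401 against 206, 194 and 227, a change of -0.87 (adjusted p = 0.00167), although its other, very dim probe set had a change of 0.49 and was not called, and the mean of both gave -0.19.

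Lman1, Mcfd2, Sec24c and Mia2 were picked out after their values were seen. Lman1 and Mcfd2 form the receptor that carries coagulation factors V and VIII out of the ER. Mcfd2 read 1215, 1331 and 1807 in controls and 573, 644 and 885 in nulls, a change of -1.02 (adjusted p = 0.0138), and Lman1 read 1264, 1146 and 1460 against 755, 706 and 905, a change of -0.69 (adjusted p = 0.0168). In these probe sets both partners were lower in every null than in any control, but of the 4 other Lman1 probe sets 3 had overlapping groups (changes of -0.48, -0.09 and 0.27) and none was called. The call of Mcfd2 was lost without Control_1192, Control_1193 or Null_1191 (adjusted p = 0.0544, 0.0546 and 0.066), and that of Lman1 without Control_8, Control_1193 or Null_1191 (0.0626, 0.0825 and 0.0764), with quantile normalization (-0.47, 0.0672) and with its probe sets averaged (-0.37, 0.0681). Sec24c, another cargo-binding coat protein, had a change of -0.58 (adjusted p = 0.0246), which was lost without Control_8, Control_1192, Control_1193 or Null_1191 (0.0944, 0.0898, 0.101 and 0.0807) and with its 2 probe sets averaged (-0.32, 0.193). The dim Mia2, which helps load large cargo, read 86.7, 90.7 and 83.5 against 29.4, 43.2 and 29.6 (adjusted p = 0.00493). The gene of the list that rose, Kdelr3, a retrieval receptor for ER proteins, was dim as well, at 41.4, 47.997 and 48.8 against 88.0, 78.5 and 83.4 (adjusted p = 0.0235), and its call was lost without any of Control_8, Control_1192, Control_1193, Null_1191 and Null_1195 (0.0882, 0.0834, 0.0717, 0.066 and 0.0727). Levels this close to the array medians are given without a fold.

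**Figure D5:**
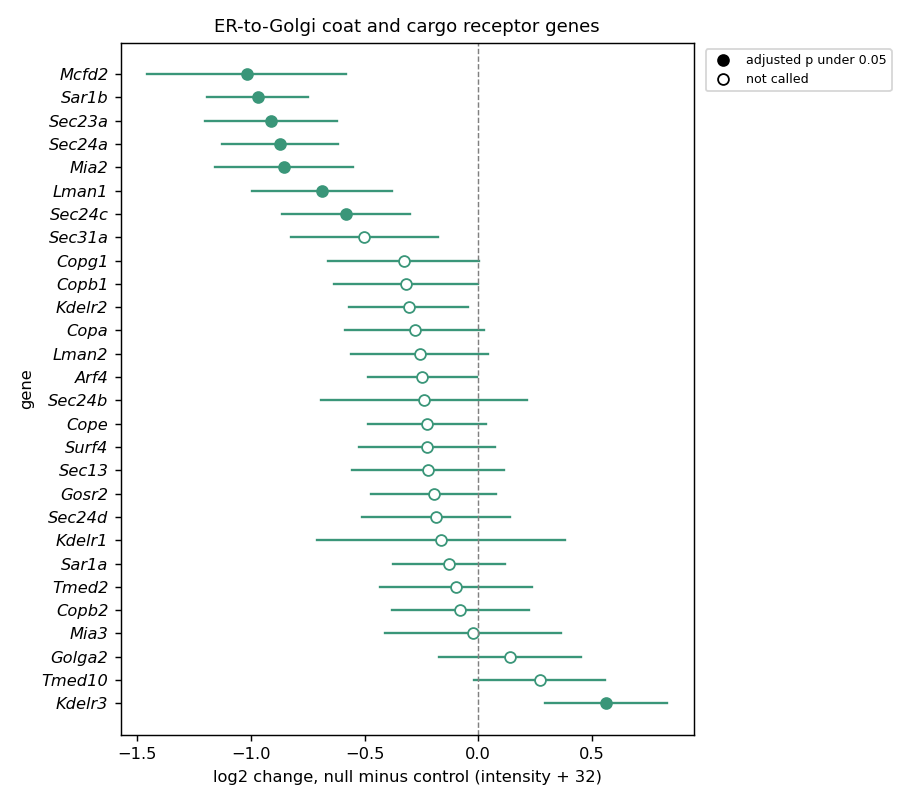
Log2 change of null minus control (x axis, intensity plus 32) for the 28 coat and cargo receptor genes (y axis), sorted by change, with 95% intervals from the limma fit over 3 control and 3 null arrays. The 7 filled points on the left fell, from Mcfd2 at -1.02 to Sec24c at -0.58, and Kdelr3, at 0.56, rose.

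The lists of entry and folding had 1 gene each called lower, or 4.35% and 5.26% of their genes, where 7.85% of all genes were. Of 23 genes of translocation, signal peptidase and glycan transfer 1 fell, Sec62, which helps proteins enter the ER and read 1212, 1399 and 1318 against 927, 921 and 1013 (change -0.44, adjusted p = 0.0403). That call was lost without Control_8, Control_1192, Control_1193 or Null_1191 (adjusted p = 0.0791, 0.172, 0.141 and 0.137). The 4 other Sec62 probe sets were not called (-0.34, -0.18, -0.05 and 0.53), and the change was -0.10 with the 5 averaged (adjusted p = 0.569) and -0.22 with quantile normalization (0.212). Of 19 further folding and redox genes 1 fell, Pdia5, a disulfide isomerase, at 396, 331 and 339 against 219, 123 and 183 (change -0.93, adjusted p = 0.0166), lost without Control_8, Control_1192 or Control_1193 (0.0704, 0.0631 and 0.0587). The median of that folding list was -0.31, and the nulls lay below the controls in 9 of the 19 genes, 47.4%, against 17.9% of all genes.

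Of 14 further degradation genes 3 fell (21.4%, against 7.85% of all genes). Os9, a lectin that brings glycoproteins to HRD1, read 1048, 837 and 913 against 659, 556 and 642 (change -0.56, adjusted p = 0.0302). Faf2, which recruits the ATPase p97 to the ER membrane, had a change of -0.55 (adjusted p = 0.034), and Edem2, a mannosidase that marks glycoproteins for degradation, one of -0.59 (adjusted p = 0.043). The other Edem2 probe set went the other way, with all nulls above all controls (0.22, not called), and the mean of both was -0.18 (adjusted p = 0.304). With quantile normalization the change of Os9 was -0.36 (adjusted p = 0.139). The adjusted p of this Os9 probe set was 0.124, 0.0603, 0.103, 0.115 and 0.0576 without Control_8, Control_1192, Control_1193, Null_1191 and Null_1195. The other, dimmer Os9 probe set read 183, 166 and 184 against 108, 93.4 and 90.9 and was called lower (-0.70, adjusted p = 0.00763). Its null mean of 97.5 lay below the highest array median. Faf2 lost its call without Control_1192, Control_1193, Null_1191 or Null_1195 (0.149, 0.135, 0.104 and 0.0612), and Edem2 without Control_8, Control_1192, Control_1193 or Null_1191 (0.0809, 0.159, 0.152 and 0.131).

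The 29 genes of the integrated stress response and amino acid metabolism had a median change of 0.03, with 3 that fell and 1 that rose, or 10.3% and 3.45% of the list where 7.85% and 1.56% of all genes did. Atf5, a factor of the same family as Atf4, read 1650, 1862 and 1900 in controls and 313, 371 and 594 in nulls. The highest null was far below the lowest control, and the change was -2.05 with a standard error of 0.20 (adjusted p = 0.000346), a 4.14-fold fall. Cth, which makes cysteine in the transsulfuration pathway and is rich in liver, read 1801, 1257 and 1686 against 200, 206 and 294, a change of -2.61 (adjusted p = 3.77e-05). Mthfd2, a mitochondrial folate enzyme known as an ATF4 target, went the other way, at 311, 312 and 218 against 527, 501 and 552, a change of 0.85 with a standard error of 0.15 (adjusted p = 0.0089). Psat1, an enzyme of serine synthesis picked out after its value was seen, had a change of -0.62 (adjusted p = 0.0294), lost without Control_8, Control_1192, Control_1193 or Null_1191 (0.0958, 0.0631, 0.124 and 0.116) and with quantile normalization (-0.39, 0.118). The other, dimmer Psat1 probe set read 1172, 936 and 1274 against 493, 575 and 553 and was called lower as well (-1.01, adjusted p = 0.00237). Genes of this list were called in both directions.

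Of 12 other factors of the ER membrane 2 fell (16.7%, against 7.85% of all genes). Creb3l3, a hepatocyte factor that is cut in the Golgi like ATF6 and drives acute phase and lipid genes, read 1205, 1406 and 1431 in controls and 517, 644 and 657 in nulls. The groups were well apart, with a change of -1.12 (adjusted p = 0.000963), a 2.17-fold fall. Tmbim6, an ER membrane protein that protects against stress-induced cell death, read 2687, 2663 and 2876 against 1089, 1403 and 1733, a change of -0.97 (adjusted p = 0.00622).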

How the data were processed

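Total RNA of 6 fetal livers (3 control, 3 null) was labelled with biotin and hybridised to Affymetrix arrays, per the labels. The values the authors deposited are linear intensities, 1 per probe set and array, their summarisation and scaling not given in the sources used here. Between 0.909% and 1.34% of the values of an array lay below 0. The array medians over the tested probe sets differed by at most 0.0877 on the log2 scale, so no rescaling was applied. No pair of arrays held identical values, and the number of arrays limits the precision.

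Of 45101 probe sets, 64 controls were left out. Of the other 45037, the platform annotation gave 1 symbol to 34945, several to 932 and none to 9160. Negative values were raised to 0, a pseudocount of 32 was added, and the log2 values of all 6 arrays were fitted with limma 3.58.1 in R 4.3.3 (lmFit, eBayes with an intensity trend), with Benjamini-Hochberg adjustment over all 45037 probe sets. The script was tested on simulated data. Every member is named, and of each other list up to 3 called genes with the smallest adjusted p and the first called in the opposite direction, and others as said. The alternatives were quantile normalization, centred medians, pseudocounts of 1 and 100, a filter on dim probe sets, no trend, array weights, the mean of a gene's probe sets, the run of title numbers (8 and 61 against 1191 to 1195) as a block, 4 arrays of 1 run, embryo sex, and each array left out. Embryo sex was read from Xist against Y-linked genes, not from a label. Control_8, Null_1191 and Null_1195 read as female and the other arrays as male, so sex was not balanced between control and null. The members and lists were chosen with earlier results of these data known.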

Additional observations from a re-analysis of the deposited data

How the results depend on the processing

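The 4 members that fell numbered 2 with quantile normalization and 2 with embryo sex as a term, and between 2 and 4 when 1 array was left out. They numbered 6 with the number run as a block, which added Dnajb9 (adjusted p = 0.0316) and Trib3 (0.0411), 5 with array weights, which added Sel1l (0.041), and 6 with the mean of probe sets, which added Dnajb9 (0.0393), Canx (0.0279) and Derl1 (0.0272) and lost Xbp1. The 0 that rose became 1 with quantile normalization, array weights, the number run as a block, the 4 arrays of the higher run or the mean of probe sets, and 0 to 1 with 1 array left out. Of the other pathway genes, the 17 that fell numbered 10 with quantile normalization, 29 with the block and 10 with embryo sex, and 8 to 24 with 1 array left out. The 2 that rose numbered 6 with quantile normalization, 1 among probe sets above the median level, 4 with array weights, 4 with the block, 5 with the mean of probe sets, and 1 to 3 with 1 array left out. Over all genes 7.85% fell in the main fit, 6.57% with quantile normalization, 11.1% with the block and 10.4% with array weights. With embryo sex 6.06% fell, with the mean of probe sets 8.29%, and with 1 array left out 4.98% to 9.28%. In the same order 1.56%, 3.39%, 4.11%, 3.37%, 0.934%, 2.26% and 0.539% to 3.07% rose. In the 4 arrays 2.33% rose, and among probe sets above the median level 2.16%. Genes that were not called changed sign in places. Quantile normalization gave Pdia3 0.13, Ssr3 0.023, Syvn1 0.058 and Derl1 0.15. The mean of probe sets gave Hsp90b1 -0.10, Hyou1 -0.023, Canx -0.61 and Pdia3 0.14. Embryo sex gave Hspa5 -0.0050, and the 4 arrays gave Dnajb11 -0.011 and Pdia4 -0.058. With 1 array left out, Hspa5 ran from -0.017 to 0.11, Hsp90b1 from -0.029 to 0.19, Creld2 from -0.0078 to 0.13, Pdia4 from -0.055 to 0.22, Pdia6 from -0.018 to 0.13, Sec61b from -0.055 to 0.15 and Derl1 from -0.13 to 0.040. The mean of probe sets called Ssr1 higher (adjusted p = 0.0469). The causes were not tested. Xbp1 also lost its call with quantile normalization (adjusted p = 0.16), without the trend (0.0667), with embryo sex (0.0924) and with the mean of probe sets (0.0766), and its change lay between -0.54 and -0.24 in all 17 alternatives. No paired analysis was possible because the numbers in the titles are not shared between control and null arrays. The run of the numbers used as a block is a guess at a shared batch, which no label states. Dim probe sets near the array medians limit what can be read of Trib3, Ddit3, Sdf2l1 and Kdelr3.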

Other observations

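3 further lists were drawn up after the members had been examined. Among 18 enzymes of the Golgi that build and trim N-linked glycans, 4 fell and 0 rose in the limma test (22.2% and 0%, against 7.85% and 1.56% of all genes), with a median change of -0.22. Gne, which starts the synthesis of sialic acid, read 543 ± 87.3 in controls and 201 ± 6.34 in nulls (n = 3 each), a change of -1.29 with a standard error of 0.13 (limma, adjusted p = 0.000465), and was called in all 17 alternatives, with a change of -0.83 when its 2 probe sets were averaged. Man2a1, a mannosidase of glycan maturation, fell from 1138 ± 79.4 to 619 ± 124 (limma, adjusted p = 0.00847), a call lost without Control_1192 (0.0555). Man1a and Mgat1, which act before it, fell by 0.61 and 0.51 on the log2 scale (limma, adjusted p = 0.0165 and 0.0451). The dimmer Man1a probe set was called lower as well (-0.71, limma, adjusted p = 0.0313). The call of the brighter Man1a probe set was lost without Control_8, Control_1192 or Null_1191 (adjusted p = 0.0664, 0.0901 and 0.0739 in limma), and that of Mgat1 without any 1 of the 6 arrays (0.0518 to 0.168).

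Among 11 genes of collagen folding and modification in the ER, 3 rose and 0 fell in the limma test (27.3% and 0%, against 1.56% and 7.85% of all genes), with a median change of 0.33. Plod2, a lysyl hydroxylase, read 87.7 ± 21.8 in controls and 189 ± 13.3 in nulls (n = 3 each), a change of 0.90 with a standard error of 0.16 (limma, adjusted p = 0.00857), and both of its probe sets were called. Crtap and Fkbp14, which help collagen prolyl modification and folding, had changes of 0.59 each (limma, adjusted p = 0.043 and 0.0483). The call of Crtap was lost without Control_8, Control_1192, Control_1193 or Null_1191 (limma, adjusted p = 0.117, 0.152, 0.136 and 0.0856), and that of Fkbp14 without any 1 of the 6 arrays (0.0624 to 0.181). The other Fkbp14 probe set was at 0.03, and the mean of both gave 0.31 (limma, adjusted p = 0.135). The summed intensity of 6 mesenchymal markers ran from 2668 to 3687 in the controls and from 3325 to 5653 in the nulls, with 0 of the 6 called, and its part in the result was not tested. Of 22 cytosolic and mitochondrial chaperones 1 fell (4.55%, against 7.85% of all genes), Trap1, by 0.63 on the log2 scale (limma, adjusted p = 0.0413), while Hspa8 and Hsp90aa1 had changes of 0.15 and 0.06. The call of this Trap1 probe set was lost without any 1 array other than Null_61 (limma, adjusted p = 0.114 to 0.147). The other, dimmer Trap1 probe set, with an x in its name, was called lower as well (-0.67, limma, adjusted p = 0.0195).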
